A study of Homo sapiens with 16 samples.

Results

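Subtelomeric intervals are the counted CUT&Tag intervals at the ends of the chromosomes. They were taken as the intervals on chr1 to chr22 and chrX whose midpoint lies within 500 kb of either end of the hg38 chromosome, a rule that uses position alone. There were 973 of them among 74404 intervals in all, on 41 of 46 chromosome arms, and the 5 short arms without one are those of the acrocentric chromosomes. The number per arm ran from 2 on the short arm of chromosome 3 (3p) to 47 on the long arm of chromosome 22 (22q). All libraries came from HEK293, a human embryonic kidney cell line, with the genotype eGFP-YAP, so the tagged YAP is carried by control and treated cells alike; the labels do not say whether the line is 1 clone. Cells had vehicle, or sorbitol at 200 mM for 1 h, which raises the osmotic pressure of the medium. In CUT&Tag an antibody on permeabilised nuclei guides the transposase Tn5, which cuts and tags the DNA next to the antibody's target. The antibodies were against CTCF, against the cohesin subunit RAD21, against GFP (which reads eGFP-YAP, called YAP1 here) and against acetylated lysine 27 of histone H3 (H3K27ac). Each target had 2 vehicle and 2 sorbitol libraries, in all 16 libraries in 8 groups. The names of the count columns place vehicle at an earlier time than sorbitol, while the labels describe controls run in parallel. As these sources differ, treatment and time in culture cannot be told apart here. Nothing in the labels says that the 2 libraries of a group came from separate cultures, and p-values then measure the spread between these libraries, which may be technical.

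Human chromosomes end in long arrays of the hexamer TTAGGG, read toward the end, which the shelterin proteins cover. Next to the array lie subtelomeric segments that many ends share, with copies of gene families such as DDX11L, WASH and RPL23AP, and CpG-rich repeats from which the telomeric RNA TERRA is transcribed toward the end. CTCF and cohesin are known to bind near those TERRA start sites, while H3K27ac marks active promoters and enhancers. The first part of chrX is the pseudoautosomal region, which also lies on chrY.

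The results turn on 2 kinds of interval near the ends, which their sequence defines. In hg38 the sequence next to most ends is unknown, with 10000 unknown bases at the long-arm ends of most chromosomes and up to 160000 at 14q, so an interval 10.1 kb from an end can adjoin the first known base. The first kind holds tandem copies of the telomere hexamer. The interval with the most of them, on 5p at chr5:9951-11626, holds 269. Tandem hexamers, meaning at least 2 copies of TTAGGG in a row on either strand, occurred in 32 subtelomeric intervals (3.29%) and in 57 of all intervals (0.0766%). Of the 32, 20 lay within 20 kb of an end, each on another arm, between 10.1 and 10.8 kb from it. Of the other 12, 2 lay on 18q within 4.87 kb of the last known base, and 10 lay 21.0 to 186 kb from it.

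The other kind was a CTCF site just inside the array. Capitals below mark the 14 bases that match the CTCF consensus, each stretch being printed 5′ to 3′ on the strand that carries the match.
16p, chr16:10956-10985, minus strand: ccccggcgCCAGCAGGGGGCGCtggccacc
9p, chr9:11388-11417, minus strand: ccccggcgCCAGCAGGGGGCGGtggccacc
2q, chr2:242182145-242182174, plus strand: ccccggcgCCAGCAGGGGGCGCtggacagc
19q, chr19:58606561-58606590, plus strand: cctagtcgCCAGTAGGGGGCGCaatggcag
22q, chr22:50806842-50806871, plus strand: cctagtcgCCAGTAGGGGGCGCaatggtag
Xq, chrX:156028812-156028841, plus strand: cctagtcgCCAGCAGGGGGCGCcctggcac
2p, chr2:11593-11622, minus strand: ctccgacgCCAGCAGAGGGCGCtggacacc
10p, chr10:11451-11480, plus strand: gccggctgCCACCAGGGGGCGCgccagcgg
The stretch of 16p was the same, base for base over 30 bases, on 4 arms (1p, 12p, 15q and 16p). That of 19q was shared by 3 arms (1q, 19q and 21q) and that of 2q by 2 (2q and 4q). In all, 19 subtelomeric intervals held the consensus, with at most 1 mismatch, within 20 kb of an end. Of these, 18 lay on 18 different arms in a narrow band 10.7 to 12.1 kb from the end and 0.7 to 2.14 kb from the first known base. On 17 of those 18 arms the consensus as printed read toward the chromosome end, and 10p was the exception. Among the 159 subtelomeric intervals with the consensus farther in, 67 (42.1%) read toward the end, and from 500 kb to 1 Mb 84 of 191 did. These orientations were looked at after the sequences had been seen and carry no test.

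Repeats were common near the ends. For each interval the share of its 50-mers (stretches of 50 bases) that also occur elsewhere in hg38 was counted. The mean share was 57.6% in the first 100 kb, 46.7% from 100 to 200 kb, 29.1% from 200 to 300 kb, 16.7% from 300 to 400 kb and 18.5% from 400 to 500 kb, against 10.2% over all intervals. Fully unique intervals made up 45.6% of the subtelomeric set and 75.3% of all intervals, and intervals with more than 50% repeated 50-mers made up 32.6% and 9.73%. Whether reads with several equally good matches were kept is not given in the sources used here, so at repeated intervals the counts of one copy and of another cannot be told apart. The subtelomeric intervals were also rich in GC, with a median of 61.8% against 54.2%. A transcription start site lay within 1 kb (called a promoter here) for 43.4% of them against 33.8% of all intervals. The CTCF consensus was found in 178 (18.3%), close to the 18.4% of all intervals. By annotation 317 were intronic, 282 intergenic, 222 in untranslated regions, 111 in other exons and 41 in coding sequence.

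Depth differed between targets and sets how small a change can be seen. Totals per library ran from 2838517 to 4512161 counts with CTCF, from 1187939 to 2295019 with RAD21, from 2337173 to 3820932 with YAP1 and from 6541568 to 8842656 with H3K27ac. A few intervals outside the set hold a large part of these totals: 388 intervals are called dominant here, being on the mitochondrial genome or an unplaced contig, within YAP1, or above 0.1% of the counts of some library. Of the subtelomeric intervals 1 was dominant, the hexamer array of 5p. Without the dominant intervals, CTCF libraries held 2215616 and 3356395 counts in vehicle cells but 1220238 and 1280900 after sorbitol. YAP1 libraries held 1378595 and 1677952 against 396493 and 540305, and RAD21 libraries 463648 and 1149983 against 378428 and 437702. H3K27ac libraries went the other way, with 6167431 and 6207319 against 7339213 and 8406253. Levels below are in CPM, a count relative to its library size, with sizes scaled by the trimmed mean of M values (TMM), a scaling that assumes most tested intervals to be unchanged. Under scaling to the total count, dominant intervals included, the median log2 fold change of all tested intervals goes from -0.06 to -1.04 (CTCF), from -0.01 to -0.60 (RAD21), from -0.04 to -1.46 (YAP1) and from 0.02 to 0.17 (H3K27ac). A change of a group is therefore given beside that median under the same scaling.

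In vehicle cells CTCF signal was highest next to the chromosome end. The median level of the interval was 14.9 and 15.5 CPM per kb (replicates 1 and 2) in the first 100 kb, 11.2 and 12.0 from 100 to 200 kb, 7.95 and 7.08 from 200 to 300 kb, 5.96 and 6.34 from 300 to 400 kb, and 4.75 and 5.87 from 400 to 500 kb. Both libraries of each of the first 3 bins lay above both libraries of the last bin. RAD21 had 12.1 and 10.5 CPM per kb in the first 100 kb and 8.01 and 6.95 in the last bin, and its groups did not overlap either. YAP1 differed little, with bin means between 4.00 and 5.22 CPM per kb. H3K27ac went the other way. It had 7.49 and 7.99 CPM per kb in the first 100 kb and 6.59 and 7.66 in the next bin. It had 12.6 and 11.3 from 300 to 400 kb and 9.16 and 9.81 in the last bin. The share of promoters differed too, at 35.3%, 41.2%, 49.4%, 45.5% and 44.6% from the first bin to the last. It was highest in the third bin, while H3K27ac was highest in the fourth. The CTCF consensus was held by 25.9%, 16.5%, 18.8%, 16.4% and 15.5% of intervals from the first bin to the last. Tandem hexamers were held by 13.5%, 4.12%, 0.568%, 0% and 0%. The bins thus differ in content as well as distance. The part of promoters, consensus and hexamers in these levels was not tested.

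**Figure D1:**
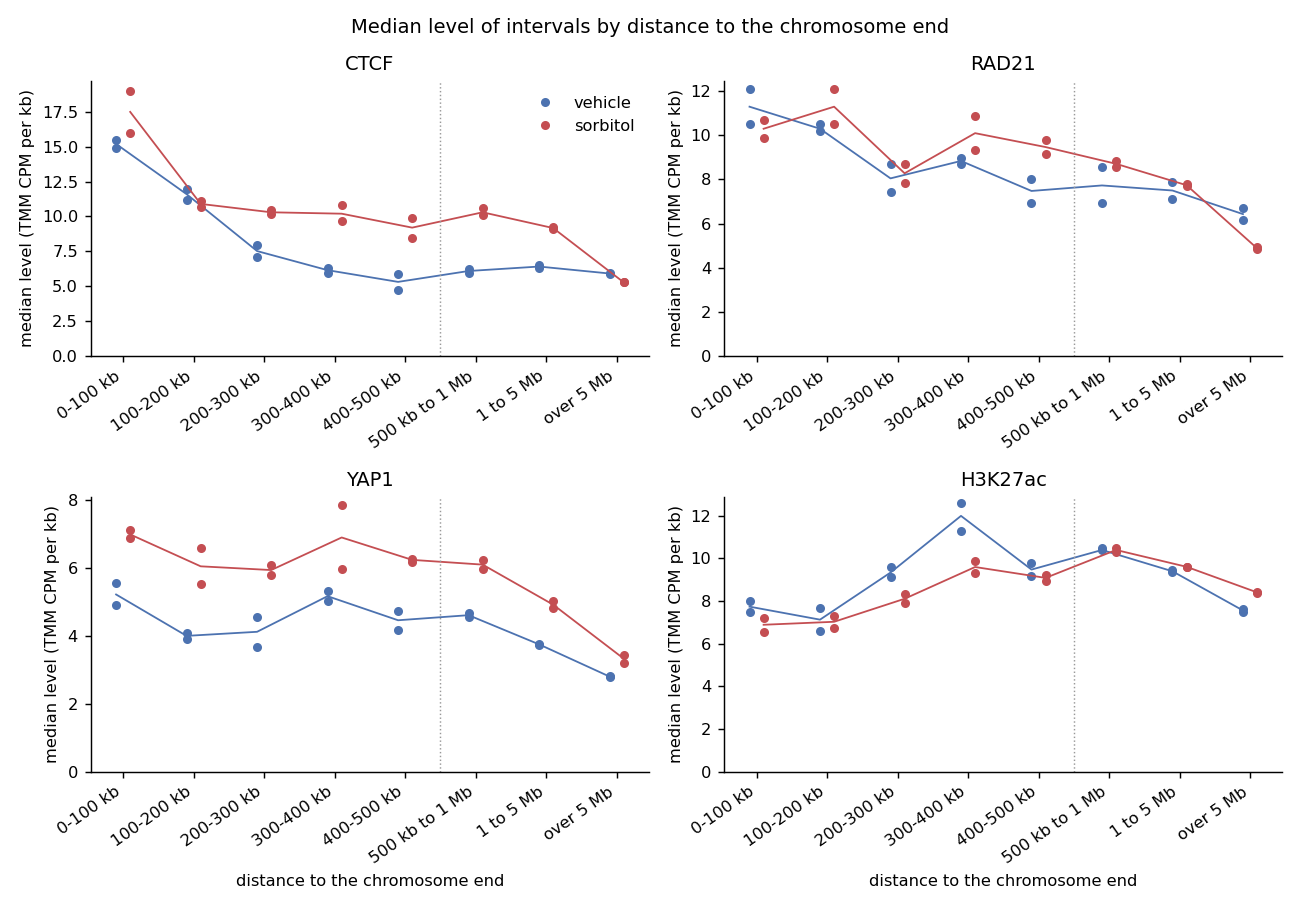
Median level of intervals (vertical axes, TMM-scaled CPM per kb) in 8 classes of distance to the chromosome end; points are the 2 vehicle (blue) and 2 sorbitol (red) libraries, lines join their means, and the dotted line marks 500 kb. CTCF in vehicle falls from 15.2 CPM per kb in the first 100 kb to 5.31 from 400 to 500 kb, and with sorbitol the mean is higher in 4 of the 5 subtelomeric bins.

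The hexamer intervals carried signal with each of the 4 antibodies. In vehicle the array of 5p gave 9818 and 9263 counts with CTCF, 6080 and 4659 with RAD21, 4782 and 4064 with YAP1 and 3362 and 2839 with H3K27ac. It had the highest CPM per kb of all subtelomeric intervals for CTCF, RAD21 and YAP1 and came after an intron of 5p for H3K27ac. The same intervals were strong whichever antibody was used: across the 32 intervals Pearson's r of log2 vehicle counts between targets was 0.885 to 0.975, a description of intervals that share their repeat and differ in its length. The median ratio of RAD21 to CTCF CPM was 1.09 in vehicle, above that of the consensus intervals given below; CPM are relative within a target, so this does not show equal signal. How much of this signal depends on the antibody was not tested, since a control antibody is not among the 8 groups.

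With sorbitol the hexamer intervals took a larger share of the counts outside dominant intervals with each target, while as a share of all counts the groups separated only with H3K27ac. For CTCF the share of counts outside dominant intervals, the 5p array added back, was 0.653% and 0.864% with vehicle and 1.35% and 1.22% with sorbitol. For RAD21 it was 1.04% and 1.89% against 2.59% and 2.29%. For YAP1 it was 0.62% and 0.655% against 1.17% and 1.74%. For H3K27ac it was 0.107% and 0.0929% against 0.193% and 0.229%. Both sorbitol libraries lay above both vehicle libraries in each of the 4 targets, and the exact two-sided permutation test gave p = 0.33, the smallest that 2 against 2 libraries can give. The ratios of means of CTCF, RAD21, YAP1 and H3K27ac were 1.70, 1.67, 2.28 and 2.11. Without the 5p array the ratios were 1.71, 1.68, 2.18 and 2.07. Of all counts, dominant intervals included, the hexamer intervals held 0.487% and 0.578% against 0.586% and 0.530% with CTCF and 0.273% and 0.271% against 0.248% and 0.298% with YAP1, and these groups overlap. With RAD21 it was 0.522% and 0.745% against 0.809% and 0.715%, which overlap too, and with H3K27ac 0.101% and 0.0876% against 0.183% and 0.215%, which do not.

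**Figure D2:**
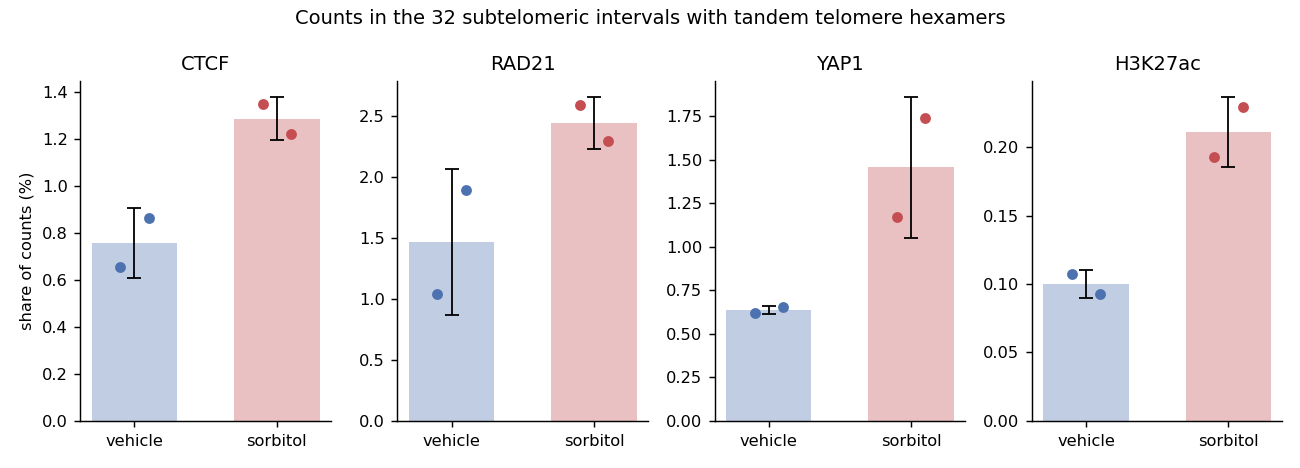
Share of counts (vertical axes, percent of counts outside dominant intervals, 5p array included) in the 32 subtelomeric intervals with tandem TTAGGG hexamers, by target; points are libraries, bars their mean and error bars the SD of 2 libraries. In each panel both sorbitol points lie above both vehicle points, for H3K27ac at 0.193% and 0.229% against 0.107% and 0.0929%.

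Single intervals were tested with edgeR's quasi-likelihood test, with Benjamini-Hochberg adjustment over all tested intervals of a target, and called at an adjusted p under 0.05. Of the 32 hexamer intervals, 25 rose and 0 fell for CTCF among 32 tested, against a background of 19.5% higher and 20.7% lower calls among all 39261 tested intervals. For YAP1 22 rose and 0 fell among 30 (background 5.34% and 1.49% of 22765). For H3K27ac 18 rose and 0 fell among 31 (background 8.59% and 14.5% of 56601). For RAD21 only 2 rose and 0 fell among 27 (background 3.34% and 1.45% of 17011), while 17 of the 27 had an unadjusted p under 0.05. DESeq2 called 3 (background 7.57% of the 5468 intervals to which it gave an adjusted p). GC-corrected offsets called 13 (background 3.64% higher and 0.946% lower). The median log2 fold changes of CTCF, RAD21, YAP1 and H3K27ac were 0.96, 0.85, 1.32 and 0.80. Under scaling to the total count these medians were -0.02, 0.29, -0.12 and 0.94, so the median of CTCF and of YAP1 flips to just under 0, with 3 higher and 2 lower calls for CTCF and 0 and 1 for YAP1. They then lie above the median of all tested intervals (-1.04 for CTCF and -1.46 for YAP1), and for H3K27ac 21 intervals are called higher and 0 lower (background on total counts 5.37% higher and 53.6% lower for CTCF, 1.48% and 63.5% with YAP1, 14.3% and 10.4% with H3K27ac). Raw counts of the 5p array went from 9818 and 9263 to 7838 and 7195 with CTCF. With H3K27ac they went from 3362 and 2839 to 8261 and 8659. These counts are not corrected for depth. Library totals went from 4512161 and 3325228 to 2838517 and 2960202 with CTCF, so its lower raw counts do not show a fall. With H3K27ac the totals went from 6561226 and 6541568 to 8842656 and 7807029. The H3K27ac change of the array on total counts was 1.11 on the log2 scale. The CTCF change of that array was 1.03 ± 0.19 on the log2 scale (± is the standard error throughout for such changes; adjusted p = 2.4e-04), and 0.07 (adjusted p = 0.68) on total counts.

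Hexamers next to the end and hexamers farther in both had calls. Among the 20 terminal intervals 18 rose for CTCF, 16 for YAP1 and 15 for H3K27ac, with medians of 0.96, 1.32 and 0.90. The background shares of higher calls are 19.5%, 5.34% and 8.59%. On total counts 1, 0 and 17 of these 20 rose, with medians of -0.02, -0.12 and 1.05. The CTCF and YAP1 calls of the terminal intervals thus rest on the scaling. Among the 10 that lie over 20 kb from the last known base, 5 of 10 tested rose for CTCF, 4 of 8 for YAP1 and 2 of 9 for H3K27ac, with medians of 0.83, 1.31 and 0.69, and none of 6 was called for RAD21 (median 0.89). The 18q interval chr18:80262808-80263295 lies 110 kb from the end by coordinate, but 110000 bases are unknown there, so that it is 0.234 kb from the last known base. It has 72.7% of its 50-mers elsewhere. Its H3K27ac counts were 296 and 302 in vehicle cells against 878 and 1025 after sorbitol (log2 fold change 1.19 ± 0.11, adjusted p = 1.3e-09; 1.33 on total counts). The 5 intervals nearest to an end all hold hexamers and lie 10.1 kb from it. That of 7p, chr7:9868-10303, rose with each target (CTCF 0.97, adjusted p = 1.2e-04; RAD21 1.34, 0.028; YAP1 1.10, 0.0038; H3K27ac 0.84, 0.006). On total counts its H3K27ac rise alone remained called (0.98, adjusted p = 0.0012), with -0.01 for CTCF, 0.76 for RAD21 and -0.33 for YAP1. That of 4p, chr4:9902-10304, rose with CTCF, YAP1 and H3K27ac, the last from 18 and 17 to 63 and 54 counts (1.25 ± 0.34, adjusted p = 0.0056), but on total counts CTCF and YAP1 turned to -0.15 and -0.33. That of 21q, chr21:46699702-46700115, rose with YAP1 (1.85; 0.45 and not called on total counts) and H3K27ac (1.54), and that of 7q, chr7:159335731-159336115, with none (CTCF 0.76 ± 0.40, adjusted p = 0.14). At 17q, chr17:83247025-83247523, nearest to the pseudogene RPL23AP87, H3K27ac went from 25 and 20 to 87 and 62 counts (1.23 ± 0.30, adjusted p = 0.0024). At 13q, chr13:114354029-114354449, 10.1 kb from the end and nearest to the pseudogene RPL23AP97, H3K27ac counts were 103 and 74 against 294 and 355, the largest rise by the naming rule (1.39 ± 0.17, adjusted p = 4.4e-08). CTCF at the same interval went from 51.9 to 147 CPM (log2 fold change 1.50, adjusted p = 7.9e-09), and the groups did not overlap. At 12q, chr12:133264866-133265400, the second strongest CTCF interval, counts of CTCF were 1742 and 1510 in vehicle cells and 1475 and 1352 after sorbitol. This gave 314 ± 61.4 and 713 ± 70.5 CPM (SD, n = 2) and a log2 fold change of 1.19 ± 0.14 (edgeR, adjusted p = 8.9e-07), but 0.22 (adjusted p = 0.10) on total counts. The arrays of Xq (chrX:156030158-156030828), 1q (chr1:248945574-248946408), 3p (chr3:10011-10928) and 10p (chr10:9999-10438) hold 81, 92, 82 and 69 hexamers, the highest numbers after 5p. At Xq H3K27ac counts were 487 and 358 against 1201 and 1223 (1.04 ± 0.10, adjusted p = 4.6e-09), and CTCF counts 1594 and 1332 against 1291 and 1199 (1.16 ± 0.14, adjusted p = 6.5e-07; 0.19 on total counts). With CTCF the other 3 had 0.94 (1q), 0.95 (3p) and 0.83 (10p), and on total counts -0.04, -0.03 and -0.14, so their direction rests on the scaling. The 25 intervals with tandem hexamers elsewhere in the genome had medians of 0.60, 0.23, -0.24 and -0.04 in the same order, and whether they differ from the subtelomeric ones was not tested.

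**Figure D3:**
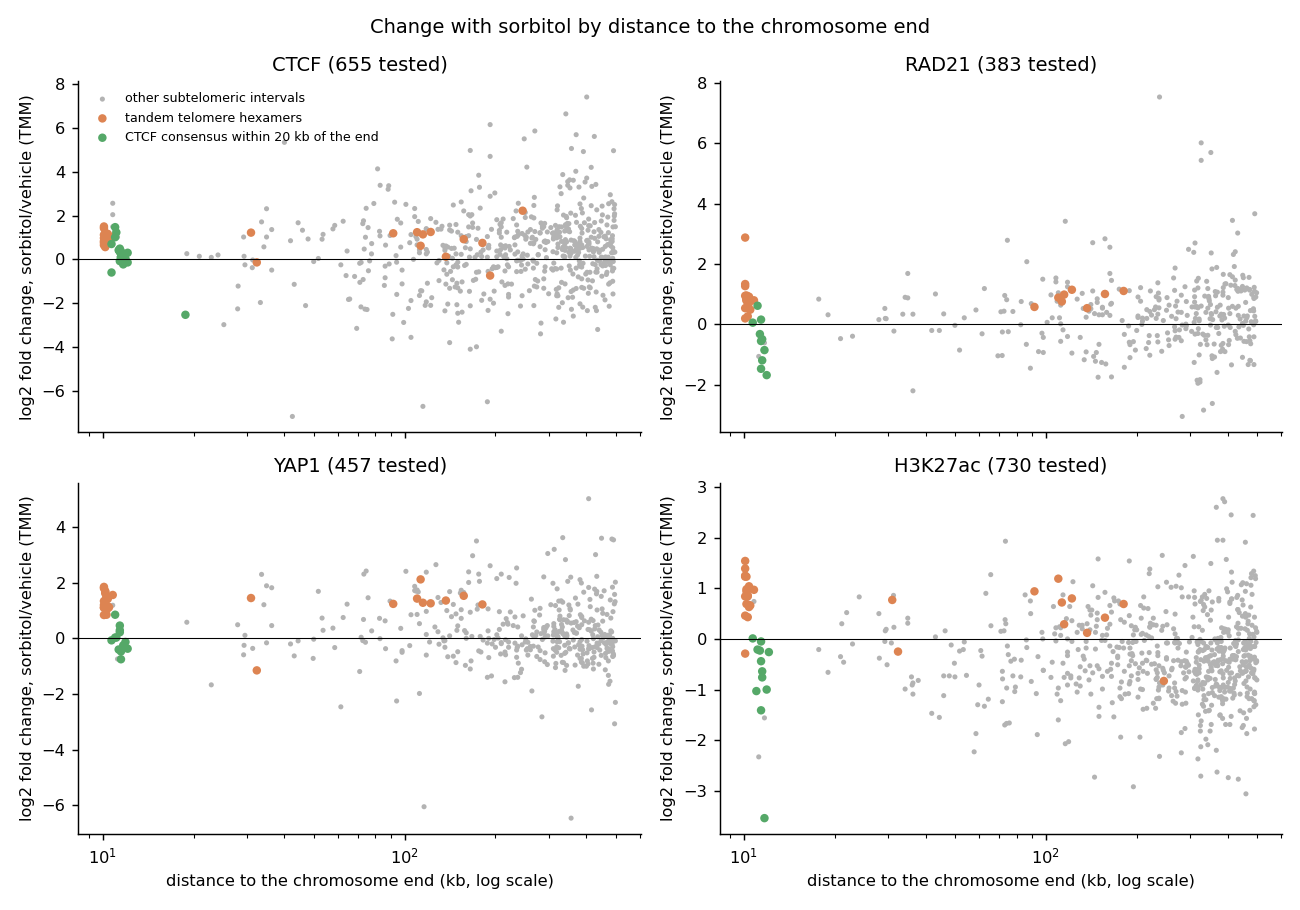
Log2 fold change of sorbitol over vehicle (vertical axes, TMM scaling) against the distance of each tested subtelomeric interval to the chromosome end (horizontal axes, kb, log scale), by target. Intervals with tandem hexamers (orange) lie mostly above 0 with each target, with CTCF at 30 of 32, whereas intervals with a CTCF consensus within 20 kb (green) spread around 0 for YAP1 and lie mostly below it for H3K27ac; grey points near the extremes can rest on a group with 0 counts, whose fitted value is no estimate of size.

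The terminal CTCF sites had strong CTCF and little RAD21. At 12p, chr12:11111-11725, CTCF had 1237 and 848 counts with vehicle and RAD21 61 and 40, or 196 and 28.9 CPM. At 1p, chr1:11055-11526, 343 bases from the start of DDX11L2, CTCF had 782 and 550 counts and RAD21 49 and 15. All 50-mers of that interval occur elsewhere, while at 2p, chr2:11393-11907, none does. There CTCF had 88 and 52 counts and RAD21 0 and 2. Over the 19 intervals the median vehicle level was 53.8 CPM for CTCF and 6.52 for RAD21, and the median ratio of RAD21 to CTCF CPM was 0.134, with quartiles of 0.121 and 0.147. The 159 subtelomeric consensus intervals farther in had a median ratio of 0.464, and 13463 consensus intervals outside the subtelomeric set 0.460. Restricted to intervals with at least 20 CTCF CPM per kb the ratios were 0.134 (18 intervals), 0.406 (86) and 0.387 (6151). CPM are relative within a target, so only the order of these ratios can be read, and it carries no test.

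**Figure D4:**
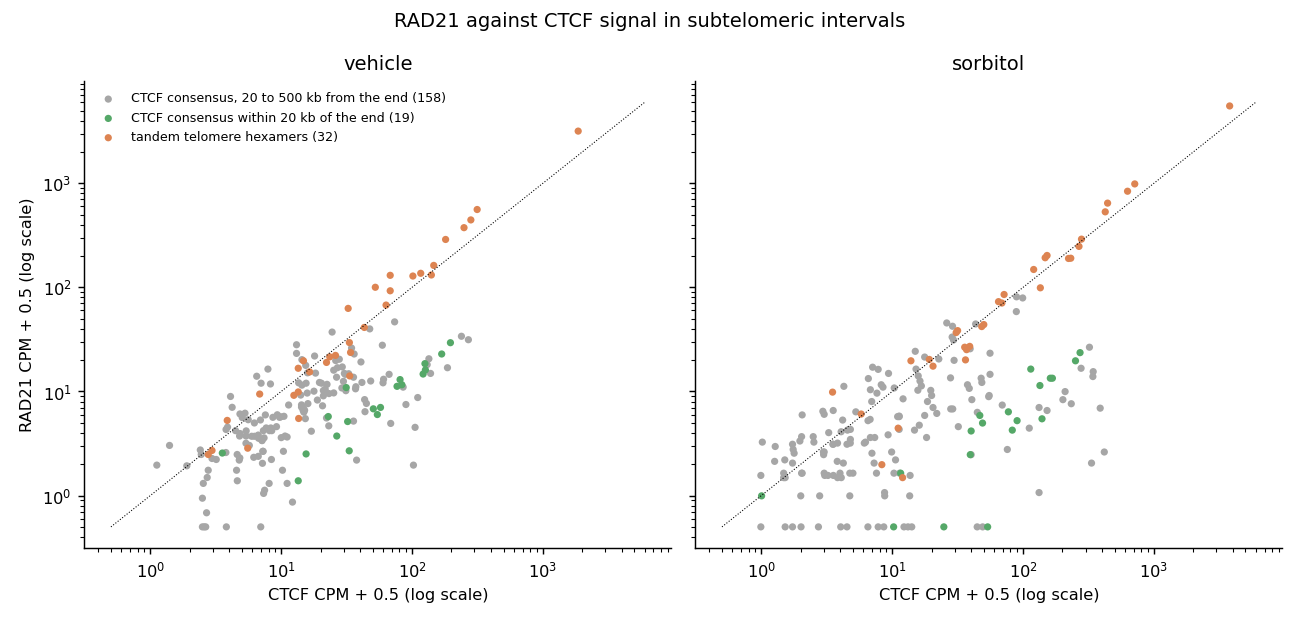
RAD21 against CTCF level (CPM + 0.5, log axes, mean of 2 libraries) in vehicle and in sorbitol for subtelomeric intervals with a CTCF consensus within 20 kb of the end (green) or 20 to 500 kb from it (grey), and for intervals with tandem hexamers (orange); the dotted line marks equal values. The terminal consensus intervals lie below the line with a median ratio of 0.134 in vehicle, and the hexamer intervals follow the line with 1.09.

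With sorbitol the terminal CTCF sites showed no common change that holds under every scaling. Of 19 tested, 7 rose and 1 fell for CTCF with a median log2 fold change of 0.30 (background 19.5% higher and 20.7% lower). On total counts 1 rose and 14 fell (median -0.69, against -1.04 for all, background 5.37% and 53.6%). With GC-corrected offsets 1 rose and 7 fell (median -0.49, background 13.9% and 17.2%). At 4q, chr4:190203037-190204127, CTCF counts were 319 and 214 against 249 and 303, or 50.1 and 139 CPM (log2 fold change 1.47 ± 0.14, edgeR adjusted p = 1.7e-08). It remained positive on total counts, at 0.49. At 2q, chr2:242181847-242182940, whose CTCF stretch is identical to that of 4q, the log2 fold change was 1.23 (adjusted p = 4.3e-07; 0.25 on total counts). The 4 arms that share the 16p stretch had log2 fold changes of 0.42 (1p), 0.35 (12p), 0.37 (15q) and 0.70 (16p). For the 3 arms that share the 19q stretch they were 1.01 (19q), 0.10 (21q) and 0.03 (1q), so an identical site did not come with an identical value. RAD21 could be tested at 10 of the sites, with a median of -0.52. There edgeR called 0 (background 3.34% higher and 1.45% lower), and 1 site had an unadjusted p under 0.05. DESeq2 called 0 too, but it gave an adjusted p to only 5468 of the 17011 tested intervals. Its 0 may therefore include sites that it left out. RAD21 counts were at most 25 in any sorbitol library, so a change of moderate size was not detectable at this depth. The ratio of RAD21 to CTCF CPM was 0.0769 with sorbitol. The difference between the responses of RAD21 and CTCF was called at 0 of 18 sites (background 0.83%), 7 of which had an unadjusted p under 0.05. For YAP1 0 of 13 sites were called by edgeR (background 5.34% higher and 1.49% lower) and by DESeq2 (background 5.6%). Of the 13, 0 had an unadjusted p under 0.05. For H3K27ac 2 of 12 (16.7%) fell and 0 rose (median -0.54). The share that fell was near the background of 14.5% lower (8.59% higher).

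Over all subtelomeric intervals CTCF calls went up more often than down. Of 655 tested, 241 (36.8%) rose and 90 (13.7%) fell, with a median log2 fold change of 0.50, beside background shares of 19.5% and 20.7% and a median of -0.06. From 500 kb to 1 Mb the values were alike, with 39.0% higher, 12.0% lower and a median of 0.61, so this is not particular to the last 500 kb. On total counts the split turned to 89 higher and 261 lower (median -0.49, all -1.04; background 5.37% higher and 53.6% lower). With GC-corrected offsets it was 154 higher and 117 lower (median 0.06, all -0.13; background 13.9% and 17.2%). The rise was larger without the CTCF consensus (202 higher and 51 lower of 490, median 0.76) than with it (39 and 39 of 165, median -0.13). With GC-corrected offsets these medians were 0.22 and -0.44. Over all tested intervals the contrast had the same direction. Without the consensus 23.1% rose and 17.9% fell (median 0.12), and with it 11.6% rose and 26.8% fell (median -0.38). As a share of counts outside dominant intervals, the subtelomeric CTCF signal was 2.36% and 2.47% with vehicle and 3.29% and 3.16% with sorbitol (exact permutation p = 0.33). Of all counts, dominant intervals included, it was lower with sorbitol, 1.69% and 1.61% against 1.97% and 1.93%.

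By the naming rule the largest CTCF rises came from intervals near 0 in vehicle. The first lies in an intron of PPP2R3B, a regulatory subunit of protein phosphatase 2A, in the pseudoautosomal region at chrX:342312-342604. Its counts were 2 and 0 in vehicle cells and 50 and 37 after sorbitol, a ratio of 117 with a 95% counting interval of 31.4 to 981. The next, in the coding sequence of KLHDC7B at chr22:50548699-50549053, had 1 and 3 counts against 52 and 43 (log2 fold change 5.86 ± 0.53, adjusted p = 1.4e-08), and none of its 50-mers occurs elsewhere. At chr6:424253-424781, with no gene within 10 kb, there were 6 and 2 counts against 65 and 87 (5.61 ± 0.40, adjusted p = 1.6e-10). In an intron of the unnamed gene ENSG00000290385 at chr1:369762-370045 there were 3 and 0 counts against 28 and 36, a ratio of 57.3 (interval 18.8 to 285); all of its 50-mers occur elsewhere, with a median of 113 copies. These 4 intervals hold no CTCF consensus, with 3 or 4 mismatches in their best match. Under the rule's minimum, a CPM above the median of the target, the largest falls were at 6q (chr6:170736335-170736811, 78 and 66 counts to 6 and 0), where DESeq2 gave an adjusted p of 0.15, and at 15q (chr15:101654985-101655469, 93 and 66 to 4 and 4). An intron of AHRR, the repressor of the aryl hydrocarbon receptor, fell at chr5:317057-317754 from 142 and 75 counts to 4 and 8 (log2 fold change -2.72 ± 0.41, adjusted p = 2.0e-05). Next to MRPL28, a mitochondrial ribosomal protein gene, chr16:362063-362775 went from 133 and 122 to 10 and 6 counts (-2.59 ± 0.37, adjusted p = 1.3e-05). At these 4 places both sorbitol libraries were below both vehicle libraries, which the naming rule required. The fall was deeper on total counts (-3.56 to -4.11).

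RAD21 could be tested at 383 intervals only, of which 27 (7.05%) rose and 3 (0.783%) fell, beside 3.34% and 1.45% of all. The median log2 fold change was 0.36 beside -0.01 for all. From 500 kb to 1 Mb 10.9% rose and 0.475% fell (median 0.54), so the rise is not particular to the last 500 kb. On total counts 13 of the 383 rose and 9 fell (median -0.24, all -0.60, background 1.59% higher and 6.94% lower). The count of calls rose when a library was left out, to 64 without sorbitol replicate 1, 48 without sorbitol replicate 2, 47 without vehicle replicate 1 and 73 without vehicle replicate 2; DESeq2 called 19. An exon of the long noncoding RNA LINC01237 (chr2:241881076-241882064) had 81 and 51 counts against 221 and 227 (log2 fold change 2.70 ± 0.30, adjusted p = 2.2e-04). An intron beside MIR8089, a microRNA gene, at chr5:181045808-181046295 had 6 and 9 counts against 51 and 52 (3.67 ± 0.50, adjusted p = 0.0011). The same interval rose with YAP1, from 23 and 28 to 94 and 60 counts (3.54 ± 0.27, adjusted p = 4.4e-08). The groups did not overlap for either target, which the naming rule required. At chr12:163045-163505, in the coding sequence of ENSG00000256694, RAD21 had 19 and 8 counts against 33 and 45 (2.56 ± 0.43, adjusted p = 0.005). In the pseudoautosomal region, chrX:432322-432572 had 12 and 0 RAD21 counts against 23 and 22 (3.03 ± 0.70, adjusted p = 0.03, and 0.07 on total counts). One of the falls is described with chrX below; another, at chr19:58581001-58581643 (67 and 22 counts to 3 and 6), had adjusted p = 0.043 and lost its call with GC-corrected offsets (adjusted p = 0.07) and without sorbitol replicate 1 (0.14), vehicle replicate 1 (0.2) or vehicle replicate 2 (0.071). Of the 72 tested intervals with the CTCF consensus, edgeR called 0, against 3.16% of all tested consensus intervals. Of the 72, 12 had an unadjusted p under 0.05 (5 higher and 7 lower). DESeq2 called 0 too, but it gave an adjusted p to only 5468 of all 17011 tested intervals. Its 0 may therefore include intervals that it left out.

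YAP1 rises lay mostly in repeats away from promoters. Of 457 tested intervals, 74 (16.2%) rose and 5 (1.09%) fell, with a median of 0.16, beside 5.34% and 1.49% of all. Away from promoters 59 of 187 rose and 0 fell (median 0.97), whereas at promoters 15 rose and 5 fell of 270 (median -0.09). Among fully unique intervals 6 rose and 3 fell of 236 (median -0.09, all unique intervals -0.06). Among non-promoter intervals that hold repeated 50-mers but no hexamers 34 of 102 rose and 0 fell (median 1.20). Over all tested intervals 10.6% rose and 1.7% fell away from promoters, against 2.91% and 1.39% at promoters. With more than 50% repeated 50-mers 16.2% of all rose and 1.37% fell. From 500 kb to 1 Mb 10.5% rose and 2.72% fell. The direction of the split is therefore not particular to the chromosome ends. On total counts these medians were -1.26 for the subtelomeric set, -1.49 for its unique intervals and -0.23 for its repeated non-promoter intervals, against -1.46 for all. Of the 457, 7 then rose and 236 fell, beside 1.48% higher and 63.5% lower of all tested intervals. The count of calls was 45 without vehicle replicate 1. Subtelomeric intervals held 2.29% and 2.32% of YAP1 counts outside dominant intervals with vehicle and 2.68% and 2.97% with sorbitol, and 1.95% and 1.96% against 2.06% and 2.06% without the hexamer intervals (exact permutation p = 0.33 for both). Of all counts, dominant intervals included, the YAP1 share was lower with sorbitol, 0.681% and 0.647% against 1.13% and 1.08%. The largest rise by the naming rule was downstream of DBNDD1 at chr16:90003650-90004150, with 18 and 2 counts against 38 and 25 (3.62 ± 0.53, adjusted p = 1.1e-04). An intron at the start of PCMTD2, a protein methyltransferase family gene, at chr20:64270822-64271306 had 10 and 8 against 21 and 30 (3.50 ± 0.51, adjusted p = 1.1e-04). In an intron of MIER2 at chr19:312510-313054 the counts were 0 and 15 against 9 and 26, with overlapping raw counts (3.20 ± 0.86, adjusted p = 0.028), and DESeq2 gave 0.62. Without sorbitol replicate 2 its value was 1.84 (adjusted p = 0.26), and its call was also lost without vehicle replicate 1 (0.072), in a fit on all 16 libraries (0.5) and on total counts (0.11). Of the 5 falls, that at the promoter of PSMD13, a proteasome subunit gene, at chr11:235910-237371, had 120 and 90 counts against 10 and 10 (-1.40 ± 0.36, adjusted p = 0.021). Its call was lost without sorbitol replicate 1 (adjusted p = 0.073), vehicle replicate 1 (0.3) or vehicle replicate 2 (0.16). That at the promoter of the pseudogene WASH5P (chr19:70314-71647) had adjusted p = 0.048, and DESeq2 gave 0.099.

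H3K27ac fell at many subtelomeric promoters. Of 730 tested intervals, 51 (6.99%) rose and 255 (34.9%) fell, with a median of -0.36, beside 8.59% and 14.5% and a median of 0.02 for all. From 500 kb to 1 Mb the values were near these, with 5.64% higher, 30.6% lower and a median of -0.30. On total counts 73 rose and 220 fell (median -0.21, all 0.17, background 14.3% higher and 10.4% lower). With GC-corrected offsets it was 67 and 206 (median -0.21, all 0.04, background 10.6% and 11.6%), so the direction held under both. At promoters 203 of 373 fell and 14 rose (median -0.59), and of all 23198 tested promoters 26.9% fell and 9.94% rose (median -0.13). Away from promoters 52 fell and 37 rose of 357 (median -0.07, and 0.08 on total counts). As a share of counts outside dominant intervals the subtelomeric set went from 1.52% and 1.53% to 1.25% and 1.28% (exact permutation p = 0.33), and without the hexamer intervals from 1.47% and 1.49% to 1.15% and 1.17%. Of 31 intervals at promoters of protein-coding genes with a symbol ZNF and a number, which encode zinc finger proteins, 27 of 30 tested fell and 0 rose (median -1.06, and -0.91 on total counts). At the other protein-coding promoters 146 of 257 fell and 8 rose (median -0.57); this grouping was made after the values were seen.

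The 4 largest H3K27ac falls by the naming rule kept their call in each alternative tried. The promoter of ZNF140 on 12q, at chr12:133079946-133081167, went from 206 and 199 counts to 43 and 32 (log2 fold change -2.92 ± 0.20, adjusted p = 2.1e-14). That of ZNF10 on the same arm, at chr12:133129847-133130821, went from 182 and 218 to 38 and 46 (-2.73 ± 0.20, adjusted p = 2.0e-13). That of ZNF274 on 19q, at chr19:58182756-58183935, went from 192 and 216 to 43 and 41 (-2.77 ± 0.19, adjusted p = 5.3e-14). ZNF140 and ZNF10 are KRAB zinc finger genes, and ZNF274 is known to recruit a histone H3 lysine 9 methyltransferase to zinc finger gene clusters. The coding sequence of SOX12, a transcription factor gene on 20p, at chr20:326179-326461, went from 97 and 76 to 24 and 13 counts (-2.71 ± 0.30, adjusted p = 5.2e-09). In each of the 4, both sorbitol libraries lay below the lower vehicle library, which the naming rule required. No 50-mer of these intervals occurs elsewhere. Arms differed: 19q had 28 of 33 tested intervals called lower and 0 higher (median -1.18), 12q 9 lower and 1 higher of 14 (median -1.48), and 6q 1 lower and 6 higher of 21 (median 0.57). Over the 38 arms with at least 5 tested intervals, the median was above 0 on 9 for H3K27ac, while for CTCF it was above 0 on 33 of 40. The strongest subtelomeric H3K27ac interval, in an intron of ENSG00000250645 on 5p (chr5:414887-415845), had 2659 and 2718 counts in vehicle cells and 2946 and 2770 after sorbitol, or 436 ± 11.1 and 331 ± 18.4 CPM (SD, n = 2).

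**Figure D5:**
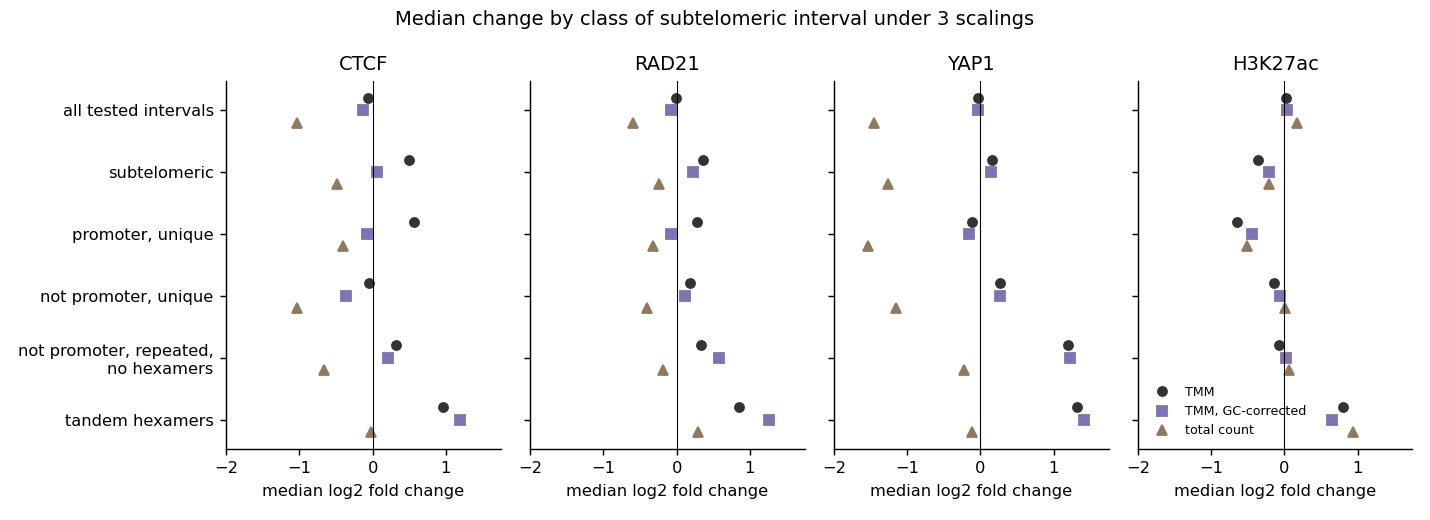
Median log2 fold change of sorbitol over vehicle (horizontal axes) by class of tested interval and by target, under TMM scaling (circles), TMM with GC-corrected offsets (squares) and scaling to the total count (triangles). The hexamer intervals have the highest median in all 4 panels under TMM (0.96, 0.85, 1.32 and 0.80), unique promoters the lowest for H3K27ac (-0.65), and total counts move all classes of CTCF, RAD21 and YAP1 to the left.

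The medians differed by class of interval. Unique promoters had medians of 0.57 (CTCF), 0.28 (RAD21), -0.12 (YAP1) and -0.65 (H3K27ac), with 157 of 250 called lower and 4 higher for H3K27ac. Under GC-corrected offsets the CTCF and RAD21 medians of this class were -0.08 and -0.08 and on total counts -0.41 and -0.32, so their sign depends on the scaling, while that of H3K27ac was -0.44 and -0.51. Unique intervals away from promoters had medians of -0.05, 0.18, 0.27 and -0.14. Among intervals near a gene of a multi-copy subtelomeric family (DDX11L, WASH, FAM138, RPL23AP and the like), 101 in all, 33 rose and 7 fell of 77 for CTCF, 18 and 2 of 48 for YAP1, 3 and 0 of 46 for RAD21 and 15 and 8 of 73 for H3K27ac. The background shares of higher and lower calls are 19.5% and 20.7% (CTCF), 5.34% and 1.49% (YAP1), 3.34% and 1.45% (RAD21) and 8.59% and 14.5% (H3K27ac). Of these 101 intervals 81.2% have more than 50% of their 50-mers elsewhere and 12 hold tandem hexamers, so family and repeat move together.

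The pseudoautosomal end of chrX held 25 intervals, and all 50-mers of each occur elsewhere in hg38, where chrY carries the same sequence. H3K27ac fell at 11 of 21 tested and rose at 0 (background 14.5% lower and 8.59% higher), with a median of -0.65 (-0.50 on total counts). An interval at PLCXD1, a phospholipase domain gene, at chrX:280112-281043 had 57.4 CPM of H3K27ac with vehicle and 15.8 with sorbitol (log2 fold change -1.85, adjusted p = 3.5e-14). Of the other named H3K27ac intervals here, chrX:230507-232968 went from 470 and 412 to 363 and 347 counts (-0.80 ± 0.10, adjusted p = 6.0e-08) and chrX:283166-283732, at the start of PLCXD1, from 320 and 260 to 164 and 168 (-1.29 ± 0.13, adjusted p = 1.3e-09). The promoter of PPP2R3B, chrX:386340-387578, had 328 and 349 against 395 and 354, a change of -0.34 (adjusted p = 0.012) that was -0.20 (adjusted p = 0.15) on total counts. CTCF rose at 11 and fell at 2 of 17 (median 1.21, 0.23 on total counts), RAD21 rose at 3 and fell at 1 of 17, and YAP1 rose at 2 and fell at 0 of 15 (backgrounds as above). The summed CTCF counts of the region went the other way, from 0.0741% and 0.0770% of counts outside dominant intervals to 0.0497% and 0.0409%. So did those of RAD21, from 0.142% and 0.165% to 0.12% and 0.115%. The strongest CTCF and RAD21 interval of this region, chrX:323373-324073 near LINC00685, fell with both. Its CTCF counts were 1954 and 1365 against 183 and 88, or 313 and 68.9 CPM (log2 fold change -2.19, adjusted p = 2.0e-04). RAD21 had 923 and 422 counts against 129 and 53 (-1.91 ± 0.33, adjusted p = 0.0059), and without sorbitol replicate 2 its log2 fold change was -1.37 (adjusted p = 0.19). H3K27ac at the same interval went from 48.5 to 42.2 CPM (log2 fold change -0.21, adjusted p = 0.18) and YAP1 from 68.4 to 54.2 (-0.34, adjusted p = 0.36).

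Calls in 2 targets overlapped in part. Among intervals tested for both, CTCF was called at 57.3% (with RAD21), 52.6% (with YAP1) and 50.4% (with H3K27ac), against which the overlaps are read. Of intervals tested for both CTCF and RAD21, 24 were called in both, which is 11.7% of the CTCF calls and 88.9% of the RAD21 calls, 22 of them higher and 2 lower in both. For CTCF and YAP1 it was 60, or 27.8% and 83.3%, of which 59 were higher in both. For CTCF and H3K27ac it was 125, or 49.8% and 51.9%, close to the shares called among those tested in both (48.4% for H3K27ac, 50.4% for CTCF). Of the 125, 94 were higher with CTCF and lower with H3K27ac, 27 higher in both, 3 lower in both and 1 the reverse. The targets share no libraries. The difference between the responses of H3K27ac and CTCF, tested as an interaction over 8 libraries, was called at 282 of 915 intervals, 217 with the lower change in H3K27ac and 65 with the higher (30.8% in all; background 21.6%, with 12.3% higher and 9.30% lower). On total counts the split was 160 higher in H3K27ac and 123 lower (background 31.9% in all), and with GC-corrected offsets 100 and 106 (background 13.8% and 5.03%). From 500 kb to 1 Mb 28.8% were called, 5.33% higher and 23.5% lower, so the split is not particular to the last 500 kb. The difference between RAD21 and CTCF was called at 21 of 723, 17 with the lower change in RAD21 and 4 with the higher (background 0.83% in all, 0.704% lower and 0.127% higher). From 500 kb to 1 Mb it was called at 2.22%. Leaving out CTCF sorbitol replicate 2 gave 9, CTCF vehicle replicate 1 gave 12 and RAD21 vehicle replicate 2 gave 40.

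The largest of these differences rest on few counts. At chrX:342312-342604, the PPP2R3B intron with 2 and 0 against 50 and 37 CTCF counts, H3K27ac had 0 and 4 against 0 and 0. At chr17:82856774-82856973, in an intron of the tubulin cofactor gene TBCD, CTCF had 0 and 0 against 10 and 13 counts, and H3K27ac 8 and 0 against 1 and 1. Without H3K27ac vehicle replicate 2 the call of the first was lost, and without H3K27ac vehicle replicate 1 that of the second (adjusted p = 1 for both). At chr1:356771-357578, in an exon of ENSG00000236601, CTCF went from 181 and 154 counts to 15 and 11 while RAD21 had 47 and 13 against 14 and 17, and the difference was 2.51 ± 0.56 (adjusted p = 0.022). It lost its call without CTCF sorbitol replicate 2 (adjusted p = 0.11), CTCF vehicle replicate 2 (0.12) or RAD21 sorbitol replicate 2 (0.083). Its 50-mers occur elsewhere at 96.2% of positions. Near LINC01237, chr2:241875816-241876227 had 56 and 47 CTCF counts against 7 and 8, and RAD21 had 7 and 2 against 9 and 11 (difference 3.66 ± 0.88, adjusted p = 0.033). That call was lost without any 1 of 6 libraries: CTCF sorbitol replicate 1 (adjusted p = 0.093) or 2 (0.092), CTCF vehicle replicate 1 (0.11) or 2 (0.19), RAD21 sorbitol replicate 2 (0.085) or RAD21 vehicle replicate 1 (0.053). In the other direction, chr19:58368047-58368489 had 3 and 0 CTCF counts against 28 and 28 and 4 and 2 RAD21 counts against 0 and 0 (adjusted p = 0.022), and chr1:369762-370045 had 16 and 0 RAD21 counts against 0 and 0 (adjusted p = 0.0024). The first lost its call without CTCF sorbitol replicate 1 (0.062) or 2 (0.066) or RAD21 vehicle replicate 1 (0.05), and the second without RAD21 vehicle replicate 1 (adjusted p = 1). The change was higher for H3K27ac than for CTCF at chr5:42239-42664, where CTCF had 40 and 14 counts against 0 and 0 and H3K27ac 8 and 2 against 7 and 7 (adjusted p = 0.0045). The same held at chr13:113904463-113904825 in an intron of LINC00452, with 11 and 20 CTCF counts against 1 and 0 and 0 and 0 H3K27ac counts against 3 and 2 (adjusted p = 0.019). That call was lost without CTCF sorbitol replicate 2 (0.07), CTCF vehicle replicate 2 (0.11), H3K27ac sorbitol replicate 1 (0.094) or H3K27ac vehicle replicate 1 (0.083) or 2 (0.082). No size is given where a group had 0 counts, since the fitted value is then no estimate.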

How the data were processed

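CUT&Tag was read as counts per interval for 16 libraries. The deposited table holds the authors' raw read counts at 74404 intervals, not normalized. Per the submitters' processing notes, Trim Galore, FastQC, BWA 0.7.17, SAMtools, Picard, MACS2 2.2.6 and bedtools 2.31.1 were used, with hg38; if libraries were pooled for peak calling, and how reads with several matches were treated, is not given in the sources used here. Each target was tested with edgeR 4.0.16 (R 4.3.3; quasi-likelihood test, TMM, filterByExpr with a minimum count of 10, Benjamini-Hochberg adjusted p under 0.05), over all intervals that passed. Differences between targets were interaction terms. DESeq2 1.42.0, other scalings, filters, windows, GC-corrected offsets, left-out libraries and the replicate block were alternatives. Genes came from GENCODE release 44, and 50-mers were counted over 194 hg38 sequences with Python 3.11.15. Tandem hexamers and the CTCF consensus were searched on both strands. Counting intervals cover counting error only, at 95%, and a group at 0 was set against a floor of 3 counts. On simulated data with 200 intervals changed by 2-fold, the test recovered 21% (CTCF), 1.5% (RAD21), 5.5% (YAP1) and 37% (H3K27ac) of them. In the data far more intervals were called, such as 40.2% of 39261 for CTCF. Recovery under this adjustment depends on how many intervals change, so these shares are not the sensitivity in the data. True changes of that size can still be missed. Named intervals were, per target, the 4 largest rises and falls past the threshold with CPM above the median and groups that do not overlap, the 3 strongest in vehicle, the 5 nearest an end, the 5 with most hexamers, up to 5 in the pseudoautosomal region and the 2 largest differences each way; others were picked after their values were seen. The members and lists were chosen with earlier results of these data known. Some sequences and 1 interval covered by the naming rule are not reported here.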

Additional observations from a re-analysis of the deposited data

Results flagged for a closer look

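The responses of 2 targets to sorbitol differed at subtelomeric intervals, by a test of the difference itself (edgeR interaction term, adjusted p under 0.05). For RAD21 against CTCF this was called at 21 of 723 intervals (2.9%, background 0.83%), 4 with the higher change in RAD21 and 17 with the lower. For H3K27ac against CTCF it was called at 282 of 915 intervals (30.8%, background 21.6%), 65 with the higher change in H3K27ac and 217 with the lower. On total counts the first split was 4 higher and 8 lower, beside 64 and 75 of all 42641 tested intervals. The second split turns to 160 higher and 123 lower on total counts, where the background is 31.9% called in all. With GC-corrected offsets it turns to 100 and 106 (background 13.8% and 5.03%). From 500 kb to 1 Mb, 2.22% were called for RAD21 against CTCF and 28.8% for H3K27ac against CTCF. Neither difference is therefore particular to the last 500 kb.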

How the results depend on the processing

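The counts of subtelomeric intervals called were 331 (CTCF), 30 (RAD21), 79 (YAP1), 306 (H3K27ac), 21 (RAD21 against CTCF) and 282 (H3K27ac against CTCF). With the stricter filter of 50 counts on average, which tests fewer intervals, CTCF gave 127, RAD21 9, YAP1 46 and H3K27ac against CTCF 151. Without a count filter RAD21 gave 67 and RAD21 against CTCF 33. One fit on all 16 libraries gave 94 for RAD21, 137 for H3K27ac and 34 for RAD21 against CTCF. DESeq2 gave 19 for RAD21, and scaling to the weakest 25% of intervals 81 for RAD21. Scaling to the total count gave 12 for RAD21 against CTCF and 243 for YAP1. Those 243 were 7 higher and 236 lower, beside 1.48% and 63.5% of all tested intervals. The cause of these differences was not tested. Members with no 50-mer elsewhere, a smaller set, gave 126, 7, 9, 188, 3 and 145 in the order above, a 250 kb window 176, 11, 52, 124, 11 and 131, and a 1 Mb window 700, 78, 152, 660, 39 and 601. Leaving out 1 library at a time gave ranges of 236 to 324, 47 to 73, 45 to 102, 247 to 273, 9 to 40 and 232 to 278. For RAD21 this was 64 without sorbitol library 1, 48 without sorbitol library 2, 47 without vehicle library 1 and 73 without vehicle library 2. For YAP1 it was 45 without vehicle library 1. For RAD21 against CTCF it was 9 without CTCF sorbitol library 2, 12 without CTCF vehicle library 1 and 40 without RAD21 vehicle library 2.

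The log2 changes of the subtelomeric share of counts were 0.415 (CTCF), 0.467 (RAD21), 0.294 (YAP1) and -0.272 (H3K27ac). With all intervals as denominator they were -0.241, 0.028, -0.733 and -0.199, since dominant intervals then enter the total. Members with no 50-mer elsewhere gave 0.104 for CTCF, -0.216 for YAP1 and -0.445 for H3K27ac. A 250 kb window gave 0.553 for YAP1 and -0.097 for H3K27ac, and a 1 Mb window 0.485 for CTCF and 0.143 for YAP1. In alternatives chosen after seeing the data, leaving out the hexamer intervals gave 0.332 for CTCF, 0.076 for YAP1 and -0.346 for H3K27ac, and keeping the 5p array gave 0.438 for YAP1 and -0.201 for H3K27ac. For the hexamer intervals alone, all counts as denominator gave 0.07, 0.27, 0.00 and 1.08. Leaving out 1 library gave 0.381 to 0.450, 0.339 to 0.607, 0.217 to 0.367 and -0.294 to -0.249.

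Of 85 called values at named intervals, 12 changed direction on total counts, 5 with CTCF and 7 with YAP1; beside those below these were the arrays of 7p and 4p with CTCF (-0.01 and -0.15) and YAP1 (-0.33 for both), and of 13q and 18q with YAP1 (-0.13 and -0.05). Of the intervals recomputed under each alternative, called or not, 8 values changed sign. On total counts these were the 1q array (nearest RPL23AP25) with CTCF (-0.04) and YAP1 (-0.31), the 3p array (LINC01986) with CTCF (-0.03), RAD21 (-0.04) and YAP1 (-0.32), the Xq array (DDX11L16) with YAP1 (-0.05) and the 10p array (ENSG00000260370) with CTCF (-0.14). Under the stricter filter it was the 3p array with RAD21 (-0.06).

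The labels number the replicates but do not pair them: deviations of same-numbered libraries correlated at -0.00444, -0.00716, 0.00159 and -0.0118. With the replicate block 304, 23, 74, 310, 22 and 265 intervals were called, and with the block and GC-corrected offsets 247, 43, 78, 275, 19 and 191. RAD21 had 383 of 973 intervals with enough counts to be tested.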
